A study of Rattus norvegicus with 24 samples.

Results

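Cytochrome c oxidase, complex IV of the respiratory chain, needs copper and heme A built into it by a set of dedicated assembly factors, and 8 such genes were followed in rat liver over diets that differed in copper and sucrose. The genes were chosen by name: Cox17, Cox19, Sco1, Sco2, Cox11, Cox15, Cox10 and Surf1, wherever the array's own gene name was one of these. Of the 8 names, 6 had a probe, and together they held 9 probes and 24 spots out of 30367 probes on the array. All 6 were among the 18643 genes tested. Sco2 and Cox10 were not the gene name of any probe and are not analysed here.

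Livers of 24 male Wistar rats were each hybridised to a one-colour oligonucleotide array. The rats had eaten pelleted chow freely until 6 months of age and were then fed purified diets for 12 weeks, so all were 9 months old when the liver was taken. There were 6 rats in each of 4 groups. The diets were low copper/30% sucrose, adequate copper/30% sucrose, low copper/10% sucrose and adequate copper/10% sucrose, which was the control diet. Low copper stands for under 0.3 mg of copper per kg of diet and adequate copper for 125 mg per kg, which some labels call high. All diets shared the same purified base, with starch and dextrin making up the carbohydrate, and all came from 1 sex, strain and tissue.

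Copper reaches complex IV in the mitochondrial intermembrane space: Cox17 is a small soluble chaperone that hands copper to Sco1 and Sco2, which load the CuA site of the subunit Cox2, and to Cox11, which serves the CuB site of the subunit Cox1. Cox19 is a soluble partner of Cox11, Cox10 and Cox15 act in sequence to make heme A, and Surf1 takes part in placing heme A and in early assembly. In humans, mutations of SCO1 can cause liver failure in the newborn and mutations of SURF1 cause Leigh syndrome, and the liver is also the organ that distributes dietary copper.

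The probes are shown because they define what each value measured, and those of 1 gene are set together since they gave different answers below. Each is a 60-base oligonucleotide, 5′ to 3′, with the rn4 position and strand that the array files give.
Cox17, chr11:64183573-64183632, minus strand, from base 225 of its RefSeq transcript: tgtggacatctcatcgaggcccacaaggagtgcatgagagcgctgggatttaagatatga
Cox19, chr12:15811836-15811895, plus strand, from base 689: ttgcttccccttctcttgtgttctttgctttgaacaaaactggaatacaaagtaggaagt
Sco1 probe 1, chr10:53763479-53763538, plus strand, from base 1138: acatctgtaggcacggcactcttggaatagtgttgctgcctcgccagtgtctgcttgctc
Sco1 probe 2, chr10:53763168-53763227, plus strand, from base 827: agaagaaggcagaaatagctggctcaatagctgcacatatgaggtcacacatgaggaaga
Cox11 probe 1, chr10:79046169-79046228, plus strand, from base 2397: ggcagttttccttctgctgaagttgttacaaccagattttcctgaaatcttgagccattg
Cox11 probe 2, chr10:79043754-79043813, plus strand, from base 590: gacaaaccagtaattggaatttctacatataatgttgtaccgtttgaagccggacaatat
Cox11 probe 3, chr10:79044907-79044966, plus strand, from base 1135: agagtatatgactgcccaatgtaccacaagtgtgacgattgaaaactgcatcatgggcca
Cox15, chr1:247091992-247092051, plus strand, from base 1236: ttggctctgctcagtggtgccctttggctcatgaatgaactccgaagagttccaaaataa
Surf1, chr3:5810692-5810751, minus strand, from base 867: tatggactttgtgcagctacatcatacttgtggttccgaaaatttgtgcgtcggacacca

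Exon and UTR positions on rn4 were not analysed here. The files' strand for the Cox15 probe, plus on rn4, differs from that of the Cox15 gene on GRCr8, minus, and this was not resolved. Probe 1 stands for Sco1 and for Cox11 in the tests, because it was the brighter one. Cox11 and Sco1 lie on the same chromosome, 10, and the other members lie on 4 others.

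The promoters of the same genes shared a short motif. The 7 letters CGGAAGT, a core that factors of the ETS family such as the nuclear respiratory factor NRF-2 (GABP) bind, were searched for on both strands in the RefSeq promoters of GRCr8, from 250 bases before to 50 bases after the gene start. They stood in 5 of the 6 members' promoters, against 6.32% of all 33469 promoters. This motif was chosen after the promoters had been read, and no binding was measured, so the count is a description. A window of 27 bases is given for each of the 5, with the motif in capitals (ACTTCCG where it lies on the opposite strand).
Cox17, chr11:75911994-75912020, GRCr8, minus strand: cgcttgactgCGGAAGTggatacagac
Sco1, chr10:52243620-52243646, GRCr8, plus strand: ggcctcctcgACTTCCGgcggaagcgg
Cox11, chr10:75955774-75955800, GRCr8, plus strand: cgcgagactcCGGAAGTgtcgcgagat
Cox15, chr1:252571478-252571504, GRCr8, minus strand: aggcctgaccCGGAAGTgtttgtcctt
Surf1, chr3:30642693-30642719, GRCr8, minus strand: ttctccgcccCGGAAGTgttcaaagat
The searched promoter of Cox19 held no CGGAAGT.

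All levels are log2 of the array's processed signal minus the 75th percentile of that array, so a level of 0 equals the 75th percentile and a difference of 1 is a doubling. Levels describe 1 probe over rats and are not set against those of another probe. The 75th percentile ran from 433 to 1284 over the 24 arrays, with 59.9% to 73.4% of the array's probes detected well over background. Hepatocyte markers were detected on all arrays (10 of 10). Of 4 skeletal or heart muscle genes, 2 were also detected on all arrays, Actn2 on 22 and Myh6 on 0. The 3 slides held the diets unevenly: the 6 low copper/30% sucrose rats shared slide 1 with 2 adequate copper/30% sucrose rats. The other 4 of the second diet shared slide 2 with 4 low copper/10% sucrose rats, whose remaining 2 were on slide 3 together with the 6 control rats. Any diet comparison without slide in the fit may therefore contain a slide difference. At a given copper level the 2 sucrose levels never shared a slide, so for sucrose slide and diet cannot be told apart within a slide. In whole liver, fewer cells of a type and less RNA per cell cannot be told apart either.

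By the 1 probe that stood for each gene, the assembly factors varied at most 1.79-fold over the 24 rats. The other probes ran wider, with Cox11 probe 2 from -5.28 to -3.60 and probe 3 from -5.17 to -3.64. Sco1 probe 2 ran from -1.87 to -0.82. These ranges were not set against those of all genes. By the probe tested, the highest level exceeded the lowest by 1.26-fold for Cox19, 1.37-fold for Surf1 and 1.42-fold for Sco1. It did so by 1.51-fold for Cox17, 1.76-fold for Cox15 and 1.79-fold for Cox11. The diets overlapped for every member in each of the pairwise comparisons tested.

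**Figure D1:**
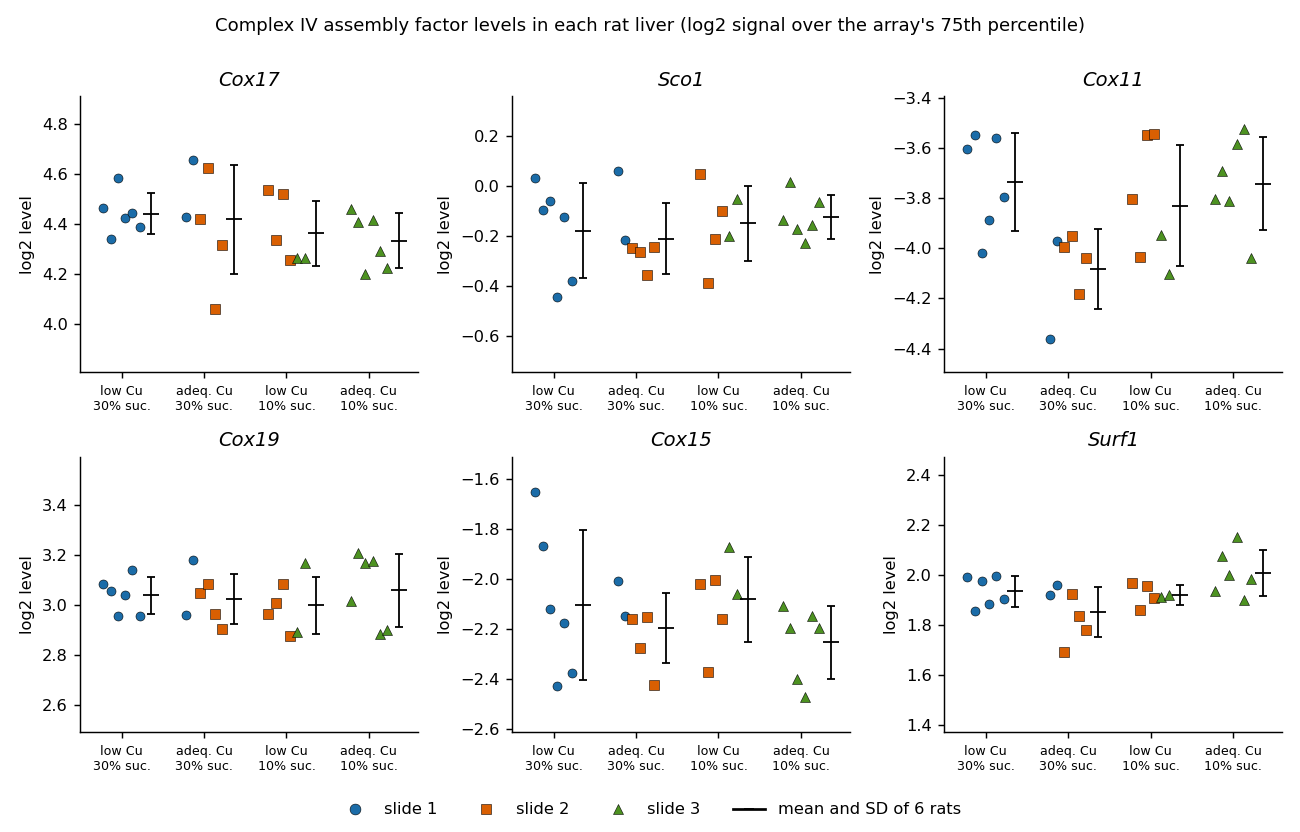
Levels of the 6 assembly factors in each rat (y axis, log2 signal minus the array's 75th percentile; all panels span the same height), by diet (x axis), with the slide as colour and shape and the mean and SD of 6 rats beside the points. Diets overlap in every panel, and the Cox11 points of adequate copper/30% sucrose lie between -4.36 and -3.95.

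Cox17, the chaperone that feeds the whole copper branch, showed nearly the same level on every diet. Its lowest, median and highest levels were 4.34, 4.43 and 4.58 on low copper/30% sucrose, and 4.06, 4.43 and 4.66 on adequate copper/30% sucrose. At 10% sucrose they were 4.26, 4.30 and 4.54 on low copper and 4.20, 4.35 and 4.46 on the control diet. The widest spread was that of adequate copper/30% sucrose (SD 0.22, n = 6), where rat 5 had the lowest Cox17 level of the 24 rats. The mean copper difference, low minus adequate over both sucrose levels, was 0.03 with a 95% interval of -0.12 to 0.17 (limma, adjusted p = 0.99996). In this fit without slide, copper changes of the Cox17 transcript beyond 1.12-fold lay outside the interval. The mean sucrose difference, 30% minus 10%, was 0.08 (interval -0.06 to 0.22, adjusted p = 0.698). With slide as a block both turned sign, to -0.09 for copper and -0.14 for sucrose (limma's adjusted p = 0.9998 and 0.923). Their intervals were then wider, at -0.28 to 0.11 for copper and -0.45 to 0.17 for sucrose.

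Cox19, the soluble partner of Cox11, had the narrowest range of the 6. By the SD over the 24 rats Surf1 varied less (0.09, against 0.11 for Cox19). Its lowest, median and highest levels were 2.96, 3.05 and 3.14 on low copper/30% sucrose, and 2.91, 3.01 and 3.18 on adequate copper/30% sucrose. At 10% sucrose they were 2.88, 2.99 and 3.17 on low copper and 2.88, 3.09 and 3.21 on the control diet. The diets overlapped almost completely. The mean copper difference was -0.02 (interval -0.14 to 0.10) and the mean sucrose difference 0.00 (interval -0.12 to 0.12), with limma's adjusted p at 0.99996 and 0.994.

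Sco1, which passes copper on to CuA, had its lowest, median and highest levels at -0.45, -0.11 and 0.03 on low copper/30% sucrose, and at -0.36, -0.25 and 0.06 on adequate copper/30% sucrose. At 10% sucrose they were -0.39, -0.15 and 0.05 on low copper and -0.23, -0.15 and 0.01 on the control diet. The control rats were the closest to each other (SD 0.09), and those on low copper/30% sucrose the furthest apart (SD 0.19, n = 6 each). The mean copper difference was 0.00 (interval -0.14 to 0.15, limma's adjusted p = 0.99996). The mean sucrose difference was -0.06 (interval -0.20 to 0.08, limma's adjusted p = 0.804).

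The 2 Sco1 probes did not follow each other from rat to rat. Both were well above background on all 24 arrays, yet their levels correlated at only r = 0.02 over the rats. The second probe gave mean levels of -1.25 ± 0.23, -1.28 ± 0.41, -1.25 ± 0.35 and -1.13 ± 0.13 (SD, n = 6 each) on low and adequate copper/30% sucrose, then low copper/10% sucrose and the control diet. Neither probe differed past the threshold in any of the 8 comparisons of diets. For Sco1 the small rat-to-rat differences of 1 probe are therefore not shared by the other.

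Cox11, the CuB factor, was the only member with a call. Its levels on low copper/30% sucrose had a lowest, median and highest value of -4.02, -3.70 and -3.55, and on adequate copper/30% sucrose of -4.36, -4.02 and -3.95. At 10% sucrose they were -4.10, -3.88 and -3.55 on low copper and -4.04, -3.75 and -3.52 on the control diet. The rats on adequate copper/30% sucrose were low: 0 of 6 stood above the mean of the control rats and 0 of 6 above the mean of the rats on low copper/30% sucrose, although both pairs of diets overlapped at their edges.

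On adequate copper, Cox11 was lower with 30% than with 10% sucrose by -0.34 (SE 0.12, interval -0.59 to -0.09, limma with Benjamini-Hochberg adjustment over all genes, adjusted p = 0.0478). This is 0.79 of the control level. Calls were common in this comparison, with 20.9% of all genes past the threshold, 18.4% higher and 2.48% lower, and 1 of 6 members called in either direction is close to that background. The call was lost in 24 of 37 alternative settings, the adjusted p running from 0.00129 to 0.9998 and the difference from -0.66 to -0.03. With slide as a fixed block the difference was -0.59 (interval -1.05 to -0.14, limma's unadjusted p = 0.0133, adjusted p = 0.9998). For this comparison that fit called 0 of 18643 genes, and 758 had an unadjusted p under 0.05. The 2 diets shared no slide.

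The same group of rats differed in other ways from the control rats. Summed neutrophil markers (5 of 5 with a probe, 2 of them detected on all arrays) had medians of 0.688 and 0.177 times the 75th percentile on adequate copper with 30% and with 10% sucrose. Their ranges were 0.353 to 19.1 and 0.127 to 0.222, on diets that shared no slide. Summed T, B and NK cell markers (6 of 6 with a probe, 1 detected on all arrays) ran from 1.05 to 1.86 and from 0.554 to 0.762. Summed red blood cell markers (5 of 5) had medians of 347 and 126, and those groups overlapped. Medians of muscle markers were 0.640 and 0.429, of endothelium markers 13.1 and 17.1, and of hepatocyte markers 2645 and 2682. The groups overlapped in these sets and in the Kupffer cell, stellate cell and bile duct sets. With no filter on dim probes the median difference of all genes here was 0.18, against 0.07 with the filter. The part of these shifts in the Cox11 difference was not tested. Leaving out 2 rats that had stood apart from their groups (adequate copper/30% sucrose rat 5, low copper/10% sucrose rat 2), the Cox11 difference was -0.32 (adjusted p = 0.0897).

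Cox11 also gave a dim signal on this array. Its processed signal ran from 21.8 to 87.0 for probe 1, 13.1 to 75.8 for probe 2 and 18.8 to 83.9 for probe 3. This signal was already corrected for background, and the median local background was 38 to 48. As a reference, the lowest level marked well above background among all probes of the same array was taken. On the log2 scale the Cox11 probes stood 2.14 to 4.33, 1.04 to 4.32 and 1.15 to 4.51 over it. This reference is not a detection threshold, since probe 2 stood above it also on arrays where it was not marked. Probes 1 and 3 were well above background on all 24 arrays and probe 2 on 21, with 4 of 6 on adequate copper/30% sucrose and 5 of 6 on low copper/10% sucrose. With the normexp background correction, which added an offset of 50, the difference was -0.03 (limma's adjusted p = 0.884). With quantile normalization it was -0.66 (limma's adjusted p = 0.00148).

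The 3 Cox11 probes gave differences of the same sign between adequate copper/30% sucrose and the control diet. Probe 1 differed by -0.34, probe 2 by -0.60 and probe 3 by -0.37, with mean levels on the first diet of -4.08 ± 0.16, -4.55 ± 0.43 and -4.27 ± 0.30 and on the control diet of -3.74 ± 0.19, -3.95 ± 0.41 and -3.90 ± 0.21 (SD, n = 6 each). Over the 24 rats the probes correlated with each other at r = 0.67, 0.56 and 0.76, and within diets at 0.54, 0.56 and 0.72. The probes share the array and the RNA, so they are not separate replicates. For the mean copper difference they differed in sign, at 0.13, 0.02 and -0.14.

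**Figure D2:**
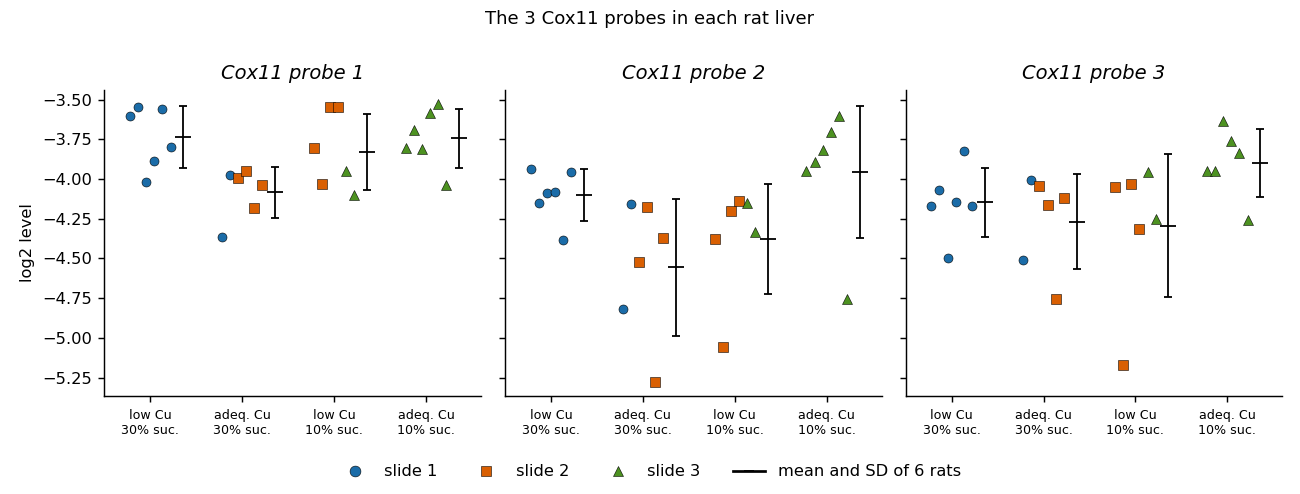
Levels of the 3 Cox11 probes in each rat (y axis, log2 signal minus the array's 75th percentile) by diet (x axis), with slide as colour and shape and the mean and SD of 6 rats beside the points. The mean of adequate copper/30% sucrose lies below that of the control diet for each probe, by 0.34, 0.60 and 0.37, and the rats of these diets share no slide.

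By probe 1, the copper difference of Cox11 had opposite signs at the 2 sucrose levels, but the difference between the 2 did not pass. At 30% sucrose, low copper stood above adequate copper by 0.35 (SE 0.12, unadjusted p = 0.00838, limma's adjusted p = 0.464), with 6 of 6 rats above the mean of adequate copper. In that comparison 0% of all genes passed and 9.86% had an unadjusted p under 0.05. At 10% sucrose the difference was -0.09 (SE 0.12, limma's adjusted p = 0.724), where 18.6% of all genes passed. The interaction was 0.44 (SE 0.17, interval 0.08 to 0.79, limma's adjusted p = 0.0732), against 20.8% of all genes called. It passed with quantile normalization (0.90, adjusted p = 0.00226) and with the authors' table (0.90, adjusted p = 0.00271). It also passed with the mean of the 3 probes (0.61, adjusted p = 0.0376), and stood at 0.00 with normexp (adjusted p = 0.987). It did not pass with slide as a fixed block (0.71, limma's adjusted p = 0.246) or with array weights (0.35, limma's adjusted p = 0.108). Nor did it pass without the 2 rats that stood apart (0.37, limma's adjusted p = 0.183). In all, it passed in 7 of 36 alternatives. Fitted probe by probe over 21181 probes, the interaction was 0.88 for probe 2 (limma's adjusted p = 0.0304) and 0.52 for probe 3 (limma's adjusted p = 0.151). The copper differences of probes 2 and 3 were -0.42 and -0.40 at 10% sucrose, and 0.45 and 0.12 at 30% sucrose.

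Within slides, the Cox11 differences had the same signs. On slide 1 the mean was -3.73 ± 0.19 for 6 rats on low copper/30% sucrose and -4.17 ± 0.28 for 2 on adequate copper/30% sucrose (SD), a difference of 0.43. On slide 3 it was -4.03 ± 0.11 for 2 rats on low copper/10% sucrose and -3.74 ± 0.19 for 6 control rats (SD), a difference of -0.28. Both pairs overlapped. The mean of these within-slide copper differences was 0.07 (SE 0.12, limma's adjusted p = 0.9998), in a comparison where 0% of all genes passed and 2.63% had an unadjusted p under 0.05.

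**Figure D3:**
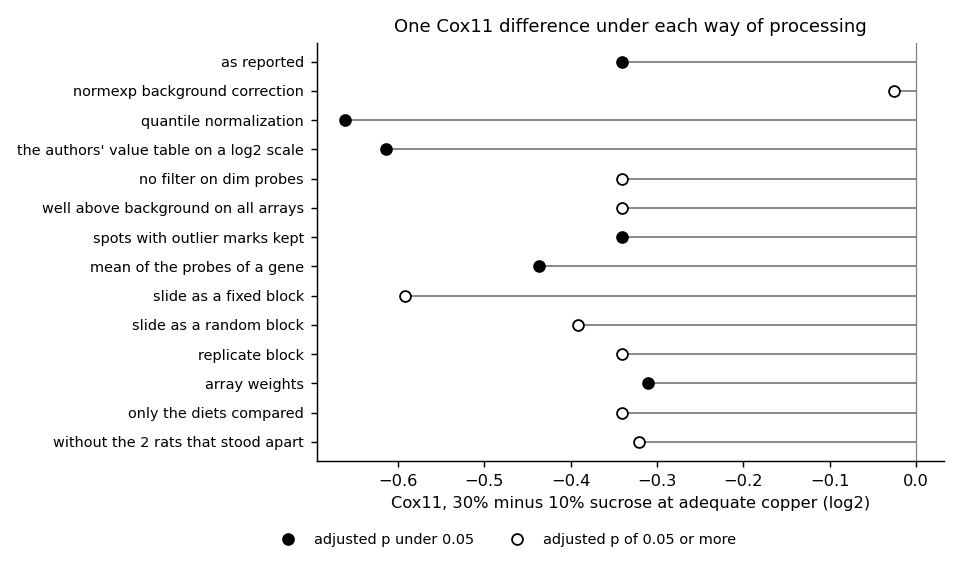
The Cox11 difference between 30% and 10% sucrose at adequate copper (x axis, log2) as reported and under 13 other settings (y axis). Filled points have an adjusted p under 0.05. The direction is the same throughout, the size runs from -0.66 with quantile normalization to -0.03 with normexp, and 8 of the 13 other settings have an adjusted p of 0.05 or more.

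Cox15, the heme A synthase, varied most among the rats on low copper/30% sucrose (SD 0.30, n = 6). Its lowest, median and highest levels were -2.43, -2.15 and -1.65 there, and -2.42, -2.15 and -2.01 on adequate copper/30% sucrose. At 10% sucrose they were -2.37, -2.04 and -1.87 on low copper and -2.47, -2.19 and -2.11 on the control diet. The mean copper difference was 0.13 (SE 0.09, interval -0.05 to 0.31, limma's adjusted p = 0.778), and it was the same size, 0.13, within slides (adjusted p = 0.9998). On slide 3 the mean was -1.97 for 2 rats on low copper and -2.25 for 6 control rats, a difference of 0.29. This split of 2 against 6 rats was not tested on its own. On slide 1 the 6 rats on low copper and the 2 on adequate copper overlapped, with a difference of -0.02.

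The gene before Cox15 in the heme A pathway, Cox10, had no probe of its name. A probe outside the rule, named LOC687381 and described in the array files as similar to COX10, was well above background on all 24 arrays. Its means were 0.39 ± 0.06 and 0.38 ± 0.09 on low and adequate copper/30% sucrose, and 0.49 ± 0.11 and 0.53 ± 0.17 on low and adequate copper/10% sucrose (SD, n = 6 each). The mean sucrose difference was -0.13 (SE 0.06, unadjusted p = 0.0451, limma's adjusted p = 0.452), with 0 of 12 rats on 30% sucrose above the mean of the rats on 10%, and the groups overlapped. For the mean sucrose difference 0% of all genes passed and 10.8% had an unadjusted p under 0.05.

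Surf1, measured by 10 spots of 1 probe, had its lowest, median and highest levels at 1.85, 1.94 and 1.99 on low copper/30% sucrose, and at 1.69, 1.88 and 1.96 on adequate copper/30% sucrose. At 10% sucrose they were 1.86, 1.92 and 1.97 on low copper and 1.90, 1.99 and 2.15 on the control diet. As with Cox11, 0 of 6 rats on adequate copper/30% sucrose stood above the mean of the control rats. The difference was -0.16 (SE 0.07, interval -0.30 to -0.01, unadjusted p = 0.0390) and did not pass after adjustment (limma's adjusted p = 0.127). The mean copper difference was 0.00 (interval -0.11 to 0.10), the tightest interval among the members.

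Over the whole set, 0 of 6 members passed for the mean copper difference, where 0% of all genes passed and 8.80% had an unadjusted p under 0.05. The 6 differences lay between -0.02 and 0.13. Without slide in the fit, no interval reached beyond a 1.24-fold rise or below 0.905-fold. For the mean sucrose difference 0 of 6 passed, against 0% of all genes, with differences between -0.12 and 0.08. For sucrose at low copper 0 of 6 passed, against 0% of all genes, and the differences ran from -0.03 to 0.09. For low copper/30% sucrose against the control diet 0 of 6 passed, against 1.76% of all genes, with differences from -0.07 to 0.15. With slide as a block the members called numbered 0 in all 8 comparisons of diets, but that fit called only 0 to 20 of the 18643 genes in any of them. The intervals widened, as the plot of differences shows.

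**Figure D4:**
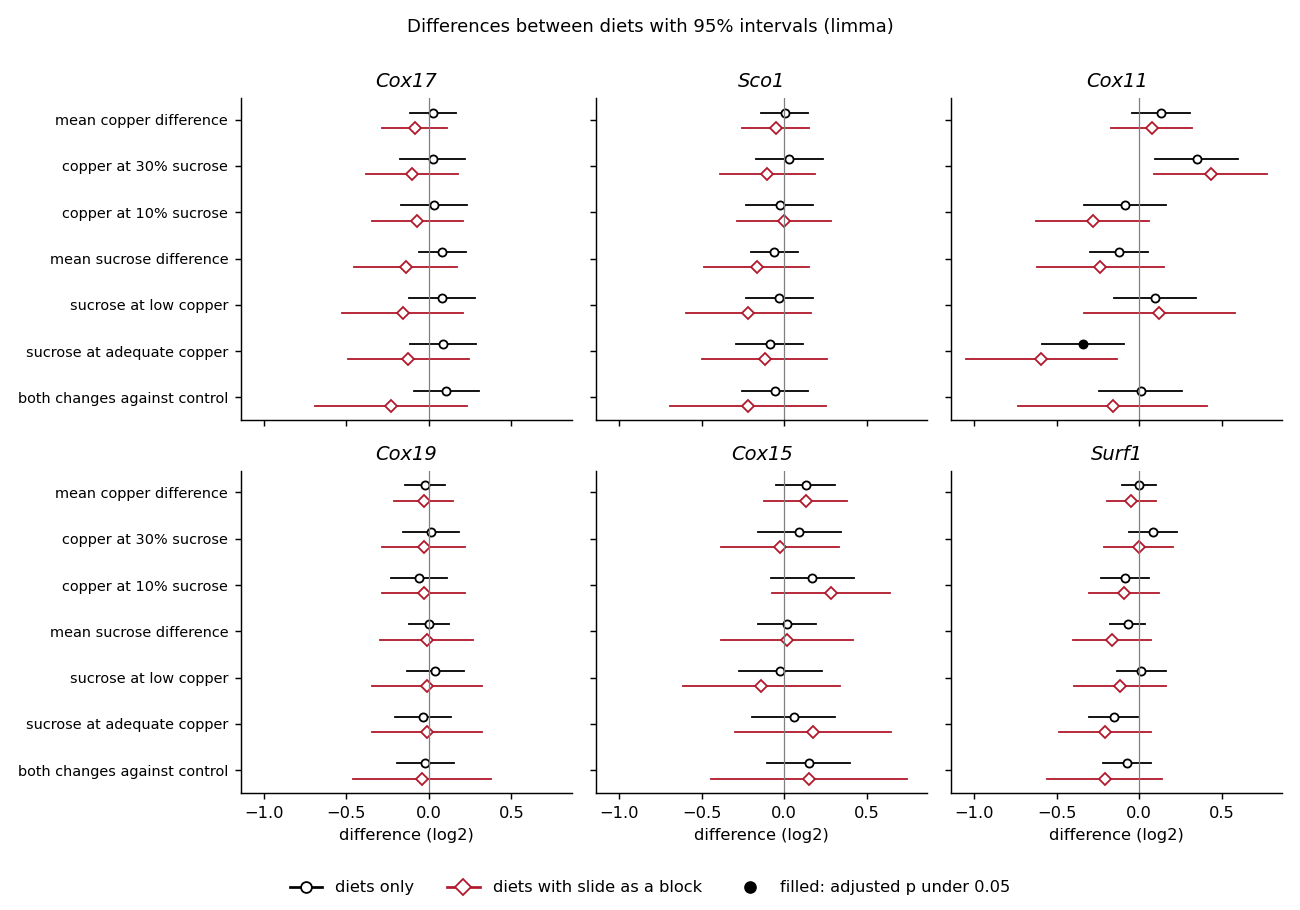
Differences between diets (x axis, log2) with 95% intervals from limma for each member and comparison (y axis), fitted on diets only (black) and with slide as a block (red). The filled point is the one member call, Cox11 for sucrose at adequate copper (-0.34), and with slide as a block its interval lies further from 0 while its adjusted p is 0.9998.

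The assembly factors did not vary as 1 group from rat to rat. Over the 15 pairs, correlations within diets (n = 24 rats) ran from -0.04 to 0.69, and 13 were above 0. The highest was that of Sco1 with Cox15, at r = 0.61 and rho = 0.60 over all rats, 0.69 within diets and 0.67 within diets and slides, and 0.55 without the 2 rats whose Sco1 lay furthest from the median. Both also followed the brightness of the array: against the log2 75th percentile r was -0.57 for Sco1 and -0.55 for Cox15, and -0.36 and -0.48 without the 2 rats whose arrays lay furthest from the median brightness. With a straight line on that percentile taken out, the correlation of Sco1 and Cox15 was 0.43. The second Sco1 probe, which did not follow the first, limits this relation further. Next came Cox19 with Surf1, at r = 0.45 over all rats and 0.47 within diets and slides. These are descriptions, since the points share the array scaling.

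**Figure D5:**
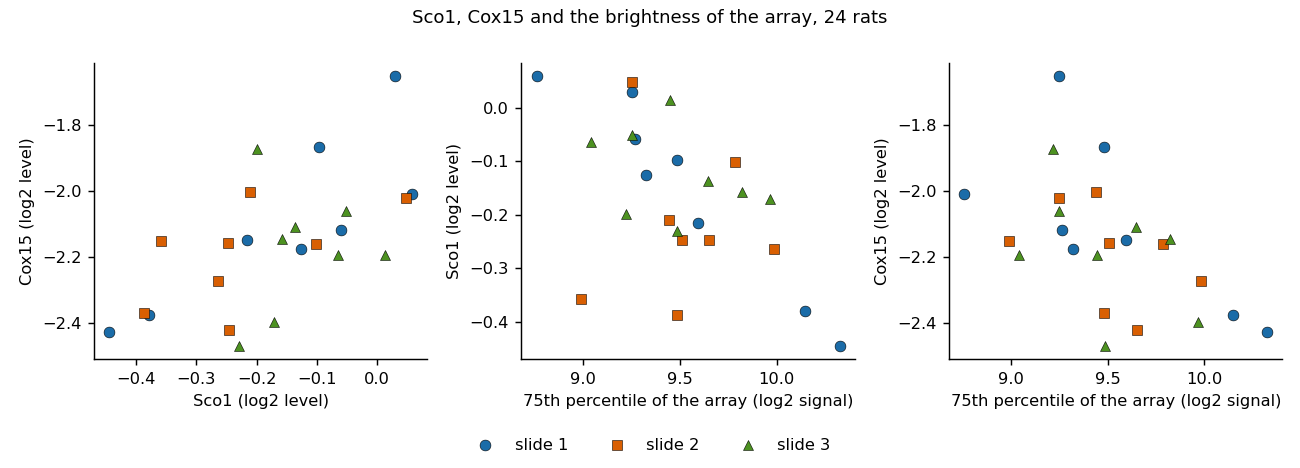
Cox15 against Sco1 (left), and each against the log2 75th percentile of its array (middle and right), for 24 rats with slide as colour and shape. The correlations are 0.61, -0.57 and -0.55, and the brighter arrays have the lower levels of both genes.

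By the rule of likeness, the 3 genes with the highest correlation over the 24 arrays were listed for each member. For Surf1 these were Mrps18c, a mitochondrial ribosomal protein gene (r = 0.82), Sin3b (0.78) and Mtcp1 (0.78). For Cox17 they were the transcript ENSRNOT00000003022 (0.75), Acot8, a peroxisomal thioesterase gene (0.73), and Minos1, now Micos10, which encodes a part of the complex that shapes the inner mitochondrial membrane (0.70). Cox11 was most like Fam82a2, now Rmdn3 (0.76), Wwtr1 (0.75) and Fbxo21 (0.75), and Cox19 was most like RGD1311072 (0.79), Dhx38 (0.79) and Fyttd1 (0.78). Cox15 was most like Olr775 (0.87), LOC680119 (0.86) and RGD1310727 (0.86), and Sco1 most like LOC259244 (0.84) and the unnamed probes A_64_P077995 (0.83) and A_64_P145453 (0.82). Each is the top of 18643 genes and carries no test.

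Among the other factors of complex IV assembly, 14 of 21 on the list were tested. For sucrose at adequate copper 2 of the 14 were lower and 0 higher, against 2.48% of all genes lower and 18.4% higher, with a median difference of -0.10 against 0.07 over all genes. Chchd8, now Coa4, a soluble assembly factor of the intermembrane space, differed by -0.42 (SE 0.11, limma's adjusted p = 0.00729), with mean levels of -0.01 and 0.41 on adequate copper with 30% and with 10% sucrose. Fdxr, the ferredoxin reductase of mitochondria, differed by -0.33 (SE 0.11, limma's adjusted p = 0.0297), with means of 2.14 and 2.48. In the interaction 1 of the 14 passed, Cox16 (0.45, limma's adjusted p = 0.0375), against 20.8% of all genes. Of the 8 comparisons of diets, the other 6 called 0 of the 14. Against this, 18.6% of all genes passed for copper at 10% sucrose. The share was 1.76% for low copper/30% sucrose against the control diet, and 0% in the rest. With slide as a block 0 of the 14 passed in all 8, in a fit that called 0 to 20 of the 18643 genes.

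Of the nuclear subunits that these factors help to assemble, 15 of 16 on the list were tested. For sucrose at adequate copper 2 of the 15 passed, against 20.9% of all genes. Cox5a was lower (-0.28, SE 0.10, limma's adjusted p = 0.0468) and Cox6a2, the muscle form of a subunit, was higher (0.76, SE 0.26, limma's adjusted p = 0.0396). Cox6a2 was well above background on 23 of 24 arrays, and with slide as a block its sign turned (-0.55). In the interaction 3 of the 15 passed, near the 20.8% of all genes: Cox5a (0.42, adjusted p = 0.0356), Ndufa4 (0.41, adjusted p = 0.0391) and Cox6a2 (-1.06, adjusted p = 0.0412). With slide as a block 0 of the 15 passed in all 8 comparisons of diets, in a fit that called 0 to 20 of the 18643 genes. The adjusted p in the interaction was then 0.528 for Cox5a, 0.521 for Ndufa4 and 0.778 for Cox6a2. Cox6a2 also passed for copper at 10% sucrose (0.80, adjusted p = 0.0311; -0.04 with slide as a block). For the mean copper difference 0 of 15 passed, against 0% of all genes. The median mean copper difference of the 15 was 0.03, with 10 of 15 above 0, against 0.03 and 60.3% above 0 over all genes. Within slides it had the other sign, -0.08 with 1 of 15 above 0, against -0.02 and 43.5% above 0 over all genes.

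Copper-handling genes around the mitochondrion were set beside them, all 12 of them tested. Mt1a, now Mt1, a metallothionein that binds copper and zinc, fell by 1.82 on low copper/30% sucrose relative to the control diet on the log2 scale (SE 0.43, limma's adjusted p = 0.0380), with mean levels of 4.56 on low copper/30% sucrose and 6.37 on the control diet. It was the 1 gene of the 12 called there, against 1.76% of all genes, and these diets share no slide. Cp, the copper protein ceruloplasmin of the plasma, was the 1 gene of the list called for sucrose at adequate copper (0.79, SE 0.27, limma's adjusted p = 0.0366), against 20.9% of all genes. With slide as a block both calls ended, at -2.54 for Mt1a (adjusted p = 0.878) and 0.77 for Cp (adjusted p = 0.9998). In the interaction 0 of the 12 passed, against 20.8% of all genes, and Slc25a3, which carries copper and phosphate into the mitochondrial matrix, stood at 0.37 (SE 0.19, limma's adjusted p = 0.187).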

How the data were processed

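Total liver RNA was labelled with Cy3 and hybridised to 1-colour arrays of 62976 spots, read with Agilent Feature Extraction 10.7.3.1 per the submitters' processing notes and the file headers. The deposited scanner intensity used was gProcessedSignal, which the software had corrected for background per the file headers. The authors' deposited value table holds a score per probe whose scaling is not given in the sources used here. It was used as an alternative, with values below 5 set to 5 before log2. Outlier and detection marks in the deposited files (a score of 0 or 1) served to drop spots and to filter probes.

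Control spots and marked outlier spots (0.652% of spots) were left out, log2 intensity minus the array's 75th percentile was averaged per probe, and probes well above background on at least 6 arrays were kept. The brightest probe stood for a gene name. Differences were tested with limma 3.58.1 in R 4.3.3 (lmFit on the 4 diets, eBayes, two-sided), Benjamini-Hochberg adjusted over 18643 genes, with a threshold of 0.05. The number of arrays limits the precision. The fit was tested on simulated independent values with no slide difference, which cannot show how slide bears on the calls. Each rat counts as 1 sample. The members and lists were chosen with earlier results of these data known. Members were always named, and up to 3 genes of a list past the threshold with the smallest p. Promoters came from RefSeq (GRCr8), matched by symbol for 6 of 6 members with a probe. Sequences of probes came from the array files. Current symbols were matched through accessions for 18004 of 30367 probes. Alternatives tried were normexp, quantile normalization, the authors' table, other filters, the mean of probes, outlier spots kept, slide or replicate number as a block, array weights, only the diets compared, and rats left out.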

Additional observations from a re-analysis of the deposited data

Results flagged for a closer look

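Sco1 in rat 1 of adequate copper/30% sucrose stood at 0.06, against -0.22 for the nearest of the other 5 rats of its diet. This gap was 0.658 of the range of the 6 rats. That rat lies on slide 1 with 1 other rat of its diet. For this check 24 groups of 6 were examined, and chance alone marks about 1 group in 20.

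Surf1 lay above the adequate copper/30% sucrose mean in 6 of 6 low copper/30% sucrose rats, and below the control mean in 6 of 6 low copper/10% sucrose rats. The copper differences were 0.08 and -0.09 and differed by 0.169. Rat by rat this opposition was not tested, and limma's interaction test of the difference did not pass (adjusted p = 0.250). On slide 1 the difference was 0.00 and on slide 3 it was -0.09.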

How the results depend on the processing

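For 6 of the 9 comparisons the number of members called was 0 under every alternative run. For sucrose at adequate copper it was 0 in place of 1 with normexp, no filter, the filter on all arrays, slide as a fixed or a random block, only the diets compared, and without the 2 rats that stood apart. With the replicate block it was also 0 (Cox11 -0.34, adjusted p = 0.0640). It was 0 to 1 when each rat was left out in turn. For the interaction it was 1 in place of 0 with quantile normalization, the authors' table and the mean of the probes, and 0 to 1 when each rat was left out. For copper at 10% sucrose it was 1 with quantile normalization and with the authors' table (Cox11 -0.40 in both, adjusted p = 0.0141 and 0.0112). Every such call was Cox11. For the other 5 members 0 of 1585 alternative values passed, with a lowest adjusted p of 0.0582.

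The Cox11 call for sucrose at adequate copper was kept in 8 of 24 fits without 1 rat: rat 3 of low copper/30% sucrose, rats 2 and 4 of adequate copper/30% sucrose, rats 2, 3, 4 and 6 of low copper/10% sucrose, and control rat 6. Without each of the other 16 rats the adjusted p was 0.0502 to 0.119, and over all 24 fits the difference was -0.40 to -0.28. The interaction of Cox11 passed only without rat 3 of low copper/30% sucrose, rat 3 or 4 of low copper/10% sucrose, or control rat 6 (0.49, with an adjusted p of 0.0397 to 0.0496). The cause was not tested.

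Over all genes, sucrose at adequate copper gave 3888 calls, 2342 with normexp, 2506 with quantile normalization, 1226 with slide as a random block and 0 with slide as a fixed block. The median of all genes there was 0.07, and 0.00 with quantile normalization. For the interaction it was -0.10 and 0.00. Of the list genes, the sucrose call of Chchd8 held in 35 of 37 alternatives, Fdxr in 25, Cp in 24, Cox6a2 in 23 of 36 and Cox5a in 11. The Mt1a call held in 21 of 37. In the interaction Cox16 and Ndufa4 held in 18 of 36, Cox5a in 22 and Cox6a2 in 18 of 35.

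Replicate numbers did not pair the rats: over 36 pairs of same-numbered rats the deviations correlated at -0.29 to 0.36, and 12 pairs exceeded 0.1. The mean differences and the interaction use all diets and have no fit of only the diets compared, and the within-slide comparison has no fit without the 2 rats, which both lie on slide 2. Blocks by slide or replicate number were not run for it.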
